A study of Mus musculus with 19 samples.

Results

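The genes described here are 36 genes of fatty acid oxidation and ketone body formation, chosen by name from the pathway and not by their values. They are 36 of the 24537 genes in the deposited table, and all 36 were counted deeply enough to be tested. Messenger RNA was sequenced from hepatocytes, the parenchymal cells of the liver, of 19 male wild-type C57BL/6J mice, with 1 library per mouse. The 10 young mice were labelled 5 months old and the 9 old mice 24 months old. The mice were culled on 2 days, 23 days apart. The first day held 5 young mice aged 140 days and 5 old mice aged 719 days, and the second held 5 young mice aged 163 days and 4 old mice aged 742 days. The labels give every mouse as wild type and name no treatment. The labels describe the cells as hepatocytes obtained by a perfusion of the liver in steps, and each mouse is named below by its library number.

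Fatty acids reach the liver from the diet and from adipose tissue, are bound in the cytosol, activated to acyl-coenzyme A and carried into mitochondria as carnitine esters. There a repeating cycle of 4 enzyme steps, the beta-oxidation spiral, shortens the chain and passes electrons to the respiratory chain. Peroxisomes run a parallel spiral on very long and branched chains. During fasting the acetyl-coenzyme A that results is turned into ketone bodies for other organs. The nuclear receptor PPAR alpha switches on much of this gene set when fatty acids arrive. By location, 21 of the 36 genes code for mitochondrial proteins, 6 for peroxisomal proteins, 2 for proteins found in both and 7 for proteins elsewhere in the cell.

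PPAR alpha with its partner RXR is known to bind a direct repeat of the motif AGGTCA, so the stretch of 250 bases before the transcription start was read for the genes with an entry in the RefSeq promoter table (GRCm38.p6), which 30 of the 36 had. The direct repeat was searched on both strands as GGNCA, any 1 base and AGGTCA in a row, the single motif AGGTCA lies within that repeat and was also searched alone, and the GC box, a common element of promoters without a TATA box, as GGGCGG. The 5 stretches printed here belong to the most abundant of the 36 messages per length (Fabp1), to 3 of the genes that were lower in old mice (Cpt2, Acads, Etfdh) and to the gene that was higher (Pdk4). They run 5′ to 3′ on the strand of the gene, and capitals mark the matches to any of these motifs. Fabp1 lies at chr6:71199629-71199878 on the plus strand. The other stretches are on the minus strand, Cpt2 at chr4:107923590-107923839, Acads at chr5:115119347-115119596, Etfdh at chr3:79628768-79629017 and Pdk4 at chr6:5496279-5496528.
Fabp1: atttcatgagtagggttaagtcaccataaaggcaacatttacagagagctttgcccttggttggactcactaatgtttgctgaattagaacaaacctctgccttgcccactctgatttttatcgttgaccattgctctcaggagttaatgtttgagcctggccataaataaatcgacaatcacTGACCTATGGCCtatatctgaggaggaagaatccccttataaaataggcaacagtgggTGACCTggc
Cpt2: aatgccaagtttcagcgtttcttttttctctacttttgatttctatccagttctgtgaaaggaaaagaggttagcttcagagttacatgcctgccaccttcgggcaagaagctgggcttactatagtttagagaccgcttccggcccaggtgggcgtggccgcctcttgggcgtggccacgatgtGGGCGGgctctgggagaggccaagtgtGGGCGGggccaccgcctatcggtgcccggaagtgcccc
Acads: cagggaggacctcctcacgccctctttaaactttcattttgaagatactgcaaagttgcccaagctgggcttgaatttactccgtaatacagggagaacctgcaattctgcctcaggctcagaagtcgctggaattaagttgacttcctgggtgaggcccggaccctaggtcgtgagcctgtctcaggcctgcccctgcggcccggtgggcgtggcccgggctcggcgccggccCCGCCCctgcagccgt
Etfdh: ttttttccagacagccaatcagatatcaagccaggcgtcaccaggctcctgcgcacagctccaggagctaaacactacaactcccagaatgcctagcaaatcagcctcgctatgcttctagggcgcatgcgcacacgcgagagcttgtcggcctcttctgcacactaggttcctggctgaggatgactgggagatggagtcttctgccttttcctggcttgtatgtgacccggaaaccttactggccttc
Pdk4: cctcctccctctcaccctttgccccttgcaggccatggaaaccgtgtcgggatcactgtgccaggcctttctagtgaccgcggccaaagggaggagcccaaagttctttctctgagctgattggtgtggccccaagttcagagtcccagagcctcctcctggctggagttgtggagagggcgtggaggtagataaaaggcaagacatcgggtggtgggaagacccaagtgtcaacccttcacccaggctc
The direct repeat was found in 1 of the 30 promoters, that of Fabp1, as TGACCTATGGCC starting 67 bases before the start. It was found in 0.17% of all 32851 promoters of the table. The single motif AGGTCA was in 5 of the 30 (Fabp1, Cpt1a, Acadvl, Acadm and Echs1), or 16.7%, against 14% of all promoters. The GC box was in 17 of the 30, or 56.7%, against 32.7% of all promoters, and it was among the letters of Cpt2 and Acads but not of Etfdh or Pdk4. A match is a match of letters in this window only.

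Libraries held 18575212 ± 679514 counts over genes (SD, n = 10 young mice) and 19549006 ± 620306 counts (SD, n = 9 old mice). Young 1184, 1186 and 1188 of the first cull day stood apart. Their summed acute phase messages, 21 genes that the liver raises in inflammation, were 75455 to 123499 CPM (counts scaled to a common library size), against 23246 to 29247 in the other 7 young mice and 29594 to 88223 in old mice. In edgeR with cull day as a covariate 0 of these 21 genes passed for age, and 2 were at an unadjusted p under 0.05. DESeq2 called 1 as lower, as did edgeR with no filter or without the cull day term, whereas limma-voom with sample weights called 1 as higher. Without these 3 mice 17 of the 21 were higher in old mice, and on the second cull day alone 18 were. Messages of 9 hepatocyte markers were abundant in every library, at 94817 to 153578 CPM in young and 118043 to 197323 CPM in old mice, with 2 higher and 4 lower in old mice. Young 1184, 1186 and 1188 were the low end of that range, at 94817 to 96244 CPM against 136773 CPM or more in the other young mice. Markers of other liver cells were also present and differed by age. Of 13 macrophage markers 12 were higher in old mice (152 to 697 CPM summed in young, 92.6 to 3757 CPM in old, the highest in old 1187), and without old 1187 2 of the 13 were. Young 1184, 1186 and 1188 had 391 to 697 CPM of these macrophage messages and the other young mice 152 to 328 CPM. Of 10 endothelial markers 8 were higher (160 to 285 against 168 to 575 CPM), as were all 10 stellate cell markers (46.3 to 125 against 130 to 455 CPM). The 6 T and NK cell and 4 B cell markers had at most 5 counts each in any young library and up to 30 to 142 counts in the old library with the most. Old 1187 had 20.6 CPM of the T and NK cell and 12.1 CPM of the B cell messages summed, against medians of 1.13 and 0.858 CPM in old mice. In such preparations a smaller share of hepatocytes and less of a message per hepatocyte cannot be told apart. The part of these other cells and of the acute phase genes in the results below was not tested beyond the fits given with them.

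With cull day as a covariate, 6 of the 36 genes were lower in old mice and 1 was higher, by edgeR's quasi-likelihood test with Benjamini-Hochberg adjustment over all genes. The lower genes were Ppara, Creb3l3, Cpt2, Acads, Etfdh and Hsd17b4, and the higher one was Pdk4. All of these but Ppara passed whichever single mouse was left out, and without old 1181 the lower genes numbered 10, against 13.8% of all genes lower in that fit. The 7 genes called are to be read against 30.9% of the 12269 genes tested, of which 14.5% were lower and 16.3% higher. At an unadjusted p under 0.05 there were 12 of the 36, against 42.3% of all genes, so neither count of the 36 stood above that of other genes. The fitted differences nevertheless lay mostly on one side. The log2 fold change of old against young was negative for 33 of the 36, with a median of -0.20, while the median over all genes tested was -0.003. For the 21 mitochondrial genes the median was -0.16, with 3 lower and 1 higher, and for the 6 peroxisomal genes it was -0.33, with 1 lower. The ages overlapped for every one of the 36, whereas 1.72% of all genes had no overlap.

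**Figure D1:**
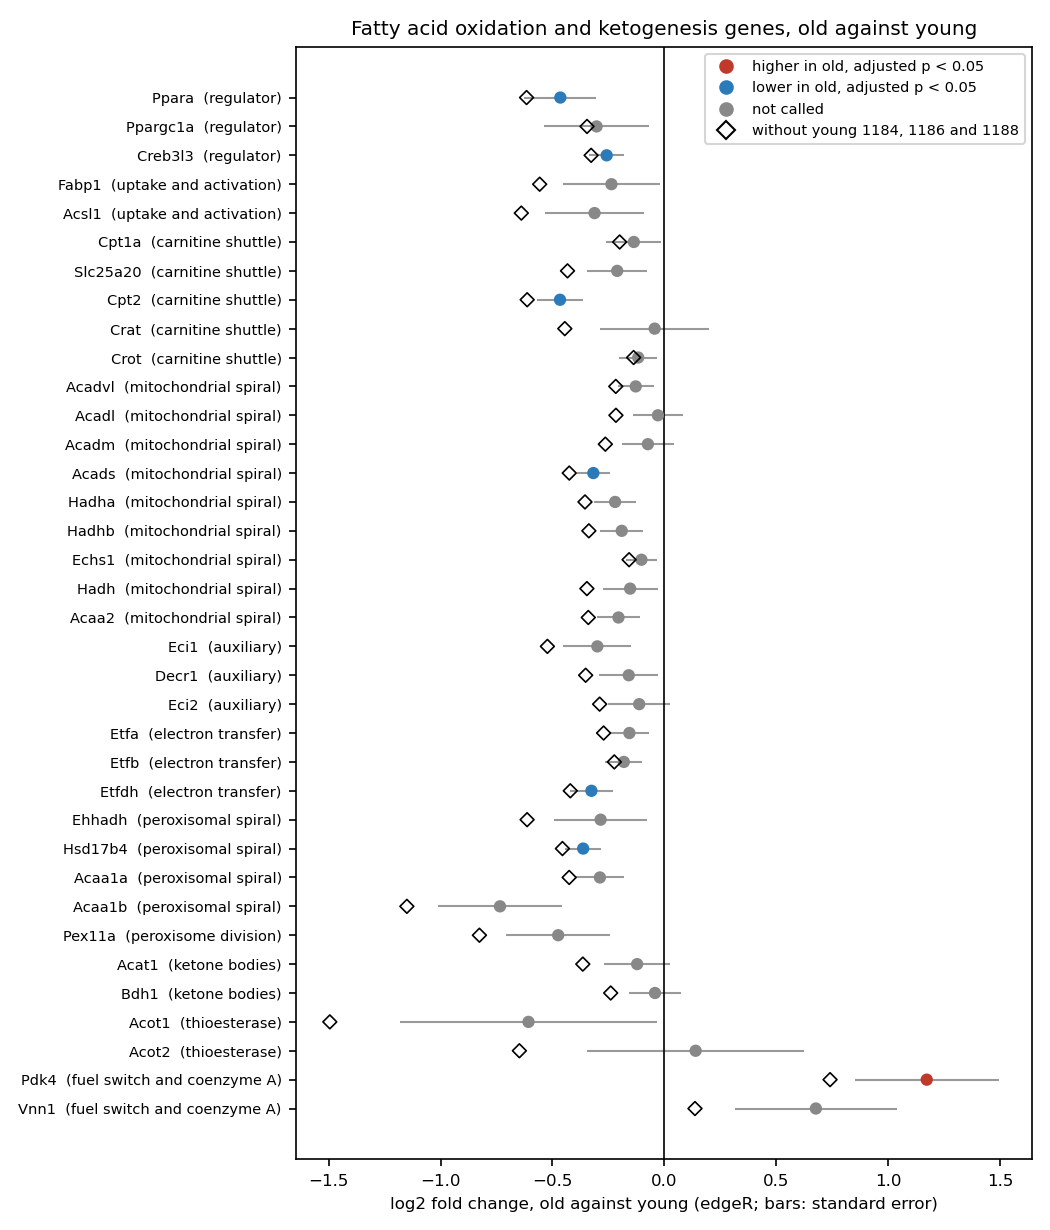
Log2 fold change of old against young (x axis) for each of the 36 genes (y axis, with its role), from edgeR with cull day as a covariate. Filled points carry bars of 1 standard error and open diamonds give the value without young 1184, 1186 and 1188; 33 of the 36 filled points lie below 0, and Pdk4 at 1.17 lies farthest above it.

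The regulators came first in the chain. Ppara, which encodes PPAR alpha (chromosome 15, 85735776 to 85806851), had 128 to 301 CPM in young mice with a median of 185, and 101 to 242 CPM in old mice with a median of 124. Of the old mice 5 lay below all young mice, while old 1181 at 242 CPM lay within the upper part of the young range. The difference was -0.46 (SE 0.161, edgeR adjusted p = 0.0348), and leaving out any 1 of 10 of the 19 mice (young 1180, 1188, 1237 or 1243, or old 1185, 1187, 1236, 1238, 1240 or 1242) ended the call, with values of -0.56 to -0.39 over all 19 omissions. Creb3l3, a liver transcription factor that is released from the endoplasmic reticulum and acts with PPAR alpha in fasting (chromosome 10, 81084333 to 81098872), had 218 to 349 CPM in young mice (median 271) and 195 to 249 CPM in old mice (median 222). It was lower in old mice, at -0.26 (SE 0.0783, edgeR adjusted p = 0.0189), and 2 old mice lay below all young mice. Ppargc1a, a coactivator of mitochondrial genes and the weakest of the 36 messages per length, averaged 6.32 ± 2.27 CPM (SD, n = 10 young mice) and 5.19 ± 1.92 CPM (SD, n = 9 old mice), with a log2 fold change of -0.30 that did not pass (95% interval -0.79 to 0.19).

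Uptake and activation were represented by 2 genes, and neither passed for age. Fabp1, the fatty acid binding protein of the hepatocyte cytosol, was the most abundant message per length, at 5939 CPM per kilobase of exon over all libraries, followed on the same scale by Acaa2 at 551 and Acaa1b at 544. It ranged from 966 to 6767 CPM in young mice, a wider span than the 1404 to 3418 CPM of old mice. Its log2 fold change was -0.24 (95% interval -0.69 to 0.22, edgeR adjusted p = 0.43). Acsl1, the main enzyme that activates long-chain fatty acids in liver, had 417 to 1268 CPM in young and 427 to 1059 CPM in old mice. Its value was -0.31 (95% interval -0.78 to 0.15).

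In the carnitine shuttle the last mitochondrial step was the one that was lower. Cpt2, which turns acylcarnitines back into acyl-coenzyme A inside the inner membrane (chromosome 4, 107903982 to 107923589), had 92.8 to 153 CPM in young mice with a median of 126, and 64.9 to 106 CPM in old mice with a median of 89.9. Of the old mice 6 lay below every young mouse. The log2 fold change was -0.47 (SE 0.102, edgeR adjusted p = 0.00307), and it stayed between -0.51 and -0.43 and passed whichever mouse was left out. Cpt1a, whose product makes the acylcarnitine at the outer membrane and is the controlled step of the pathway, had 251 to 441 CPM in young and 238 to 497 CPM in old mice. Its log2 fold change of -0.14 did not pass (95% interval -0.39 to 0.12). The carrier gene Slc25a20, which exchanges acylcarnitine for carnitine across the inner membrane, was at -0.21 (95% interval -0.49 to 0.07). Crat and Crot, the transferases for acetyl and for medium chains, were at -0.04 and -0.12, with Crat, whose span overlaps that of Dolpp1 on the other strand, spread from 17.3 to 65.9 CPM in young mice alone.

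Of the 9 genes of the mitochondrial spiral, 1 passed. Acads, the dehydrogenase for the shortest chains (chromosome 5, 115110299 to 115119346), had 103 to 147 CPM in young mice (median 129) and 84.8 to 115 CPM in old mice (median 99.9). Again 6 old mice lay below all young mice, and the difference was -0.32 (SE 0.0747, edgeR adjusted p = 0.0047). The dehydrogenases for longer chains were nearer to 0. Acadvl (very long chains) was at -0.13, Acadl (long chains) at -0.03 and Acadm (medium chains) at -0.07, and the 95% interval of Acadm ran from -0.31 to 0.17. The trifunctional protein, which carries out the remaining steps on long chains, is made from Hadha and Hadhb, whose starts lie 272 bases apart on chromosome 5 in opposite directions. They were at -0.22 (edgeR adjusted p = 0.0847) and -0.19 (edgeR adjusted p = 0.135). Echs1, Hadh and Acaa2, which hydrate, oxidise and cleave shorter chains, were at -0.10, -0.15 and -0.21, and none passed. For Hadhb 52.8% of the 100-base windows of its transcript are also found in Gm13910, a gene that is not a row of the table, and the span of Hadha overlaps that of Garem2 on the other strand, so their counts are less certain.

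Unsaturated chains need auxiliary enzymes. Eci1, the mitochondrial enoyl-coenzyme A isomerase, had 67.0 to 205 CPM in young and 65.7 to 115 CPM in old mice, with a log2 fold change of -0.30 that did not pass (95% interval -0.62 to 0.02, edgeR adjusted p = 0.14). Decr1, the dienoyl-coenzyme A reductase, was at -0.16 and Eci2, an isomerase of mitochondria and peroxisomes, at -0.11. Neither passed.

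Electrons from the acyl-coenzyme A dehydrogenases pass to the electron transfer flavoprotein, made from Etfa and Etfb, and then to ubiquinone through Etfdh. Etfdh (chromosome 3, 79603788 to 79628767) had 199 to 350 CPM in young mice (median 282) and 155 to 266 CPM in old mice (median 221), with 2 old mice below all young mice. It was lower in old mice, at -0.33 (SE 0.0943, edgeR adjusted p = 0.0147). Etfb was at -0.18 (edgeR adjusted p = 0.0985) with 4 old mice below all young mice, and Etfa was at -0.16. Etfb shares 65.2% of its 100-base windows with Gm45233, which is not a row of the table either.

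All 4 genes of the peroxisomal spiral had negative values, and 1 of them passed. Hsd17b4, the enzyme with both the hydratase and the dehydrogenase step of the peroxisome, had 403 to 613 CPM in young mice (median 520) and 345 to 486 CPM in old mice (median 398). Of the old mice 6 lay below every young mouse, and the difference was -0.36 (SE 0.0796, edgeR adjusted p = 0.00304). Ehhadh, the classic PPAR alpha target with the same steps, was at -0.28 (95% interval -0.72 to 0.15). The thiolase genes Acaa1a and Acaa1b lay at the edge of the threshold, at -0.29 (SE 0.109, edgeR adjusted p = 0.0502) and -0.73 (SE 0.277, edgeR adjusted p = 0.0505). Acaa1b ranged from 395 to 2182 CPM in young mice and from 367 to 1110 CPM in old mice. These 2 genes share 21.6% and 22.6% of their 100-base windows with each other, and the sum of their counts was lower in old mice, at -0.66 (SE 0.243, edgeR adjusted p = 0.0454). Pex11a, which elongates dividing peroxisomes and is induced by PPAR alpha, was at -0.47 (95% interval -0.96 to 0.01, edgeR adjusted p = 0.125). The count of 1 of 6 peroxisomal genes called lower, against 14.5% of all genes, turned on the 2 thiolase genes at the threshold. It was 3 of 6 with RLE scaling (15.7% of all genes lower), DESeq2 (14.6%) and limma-voom with sample weights (15.7%). With library totals alone it was 1 (9.53%), and with a score of other-cell markers as a covariate 0 (6.53%). At an unadjusted p under 0.05 there were 3 of 6, against 42.3% of all genes. A difference between peroxisomal and mitochondrial genes was not tested.

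**Figure D2:**
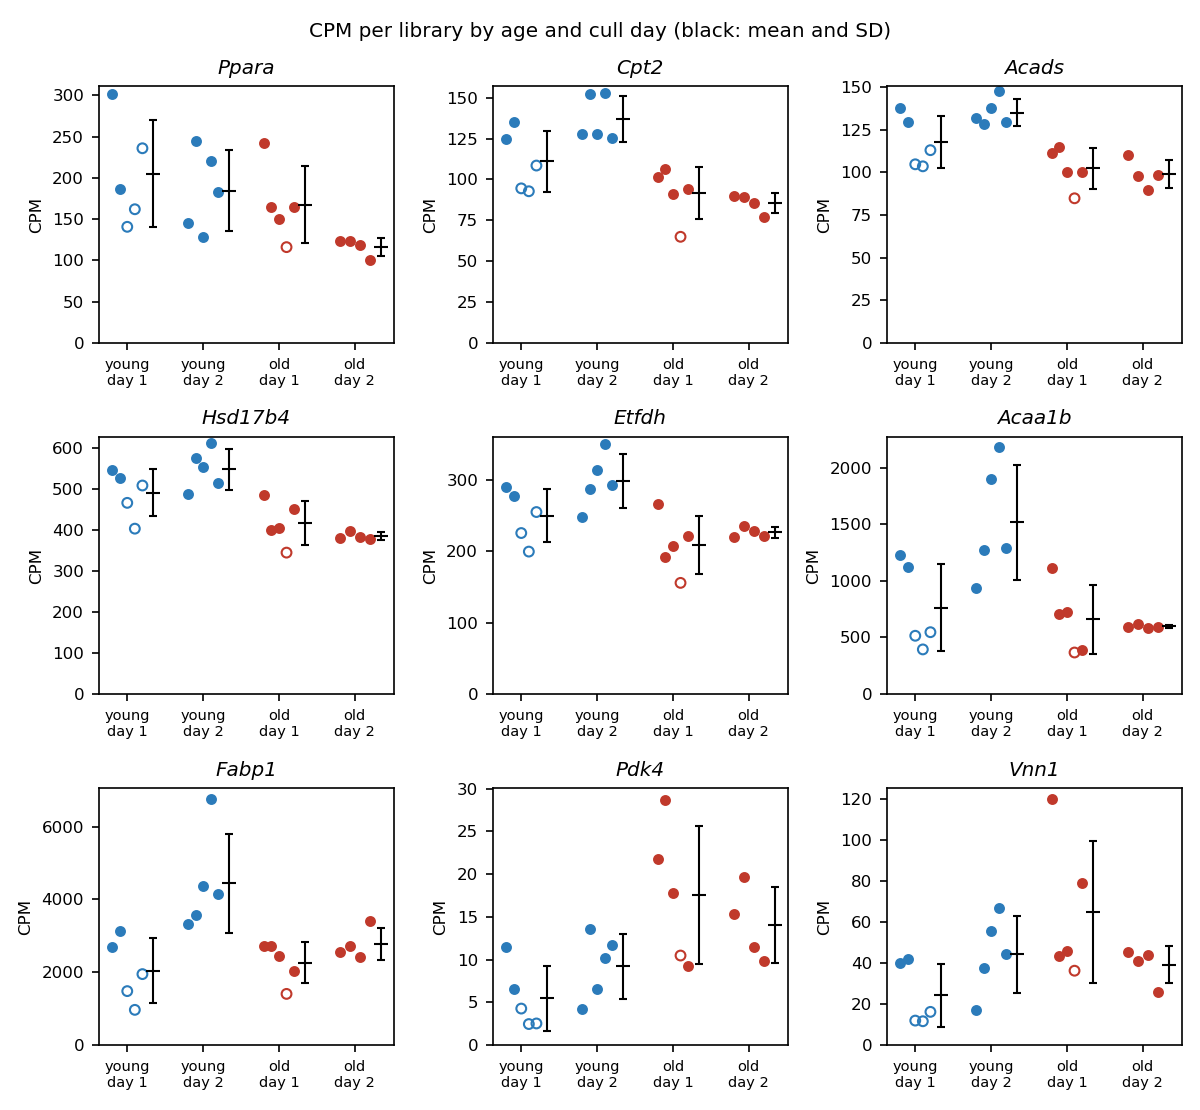
CPM (y axis, linear from 0) of 9 of the genes in each library, by age and cull day (x axis). Blue points are young and red points old mice, open circles are young 1184, 1186 and 1188 and old 1187, and black marks give the mean and SD; for Cpt2 on the second day the young mice lie at 126 to 153 CPM and the old mice at 77.1 to 89.9 CPM, and for Pdk4 5 old mice lie above all young mice.

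The ketone body genes gave no call over all mice. Acat1, the mitochondrial thiolase that joins acetyl-coenzyme A units, had 180 to 435 CPM in young and 216 to 376 CPM in old mice, at -0.12 (95% interval -0.43 to 0.19). Bdh1, which interconverts acetoacetate and beta-hydroxybutyrate, was at -0.04 (95% interval -0.29 to 0.20). Neither passed in this fit of all mice. Without young 1184, 1186 and 1188 Acat1 was lower in old mice, at -0.36 (edgeR adjusted p = 0.0269), and on the second cull day alone at -0.37 (edgeR adjusted p = 0.0324).

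The remaining genes answer to PPAR alpha and to the fed or fasted state. Pdk4, a kinase that shuts pyruvate out of the mitochondrial oxidation of glucose (chromosome 6, 5483351 to 5496278), was the gene that was higher in old mice. It had 2.45 to 13.5 CPM in young mice with a median of 6.56, and 9.28 to 28.7 CPM in old mice with a median of 15.3. Of the old mice 5 lay above all young mice, and the log2 fold change was 1.17 (SE 0.321, edgeR adjusted p = 0.0112). Young 1184, 1186 and 1188 had 4.27, 2.45 and 2.52 CPM of Pdk4, and without them the value was 0.74 (SE 0.286, edgeR adjusted p = 0.0639), no longer a call. Vnn1, a pantetheinase that recycles a building block of coenzyme A, had 11.6 to 66.9 CPM in young and 25.9 to 120 CPM in old mice, at 0.68 (95% interval -0.08 to 1.43). Without the same 3 mice the value of Vnn1 was 0.14. Acot1 and Acot2, the cytosolic and mitochondrial thioesterases that release free fatty acids, were at -0.61 and 0.14 with wide errors (SE 0.573 and 0.485). They share 21.9% and 17.1% of their 100-base windows with close relatives, and their summed counts gave -0.44 (SE 0.550), so the pair gave no call in either form over all mice. Without the same 3 mice Acot1 was lower, at -1.49 (edgeR adjusted p = 0.0077), and Acot2 was at -0.65 (edgeR adjusted p = 0.201). On the second cull day alone both were lower, at -2.10 (edgeR adjusted p = 0.00172) and -1.27 (edgeR adjusted p = 0.0294).

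**Figure D3:**
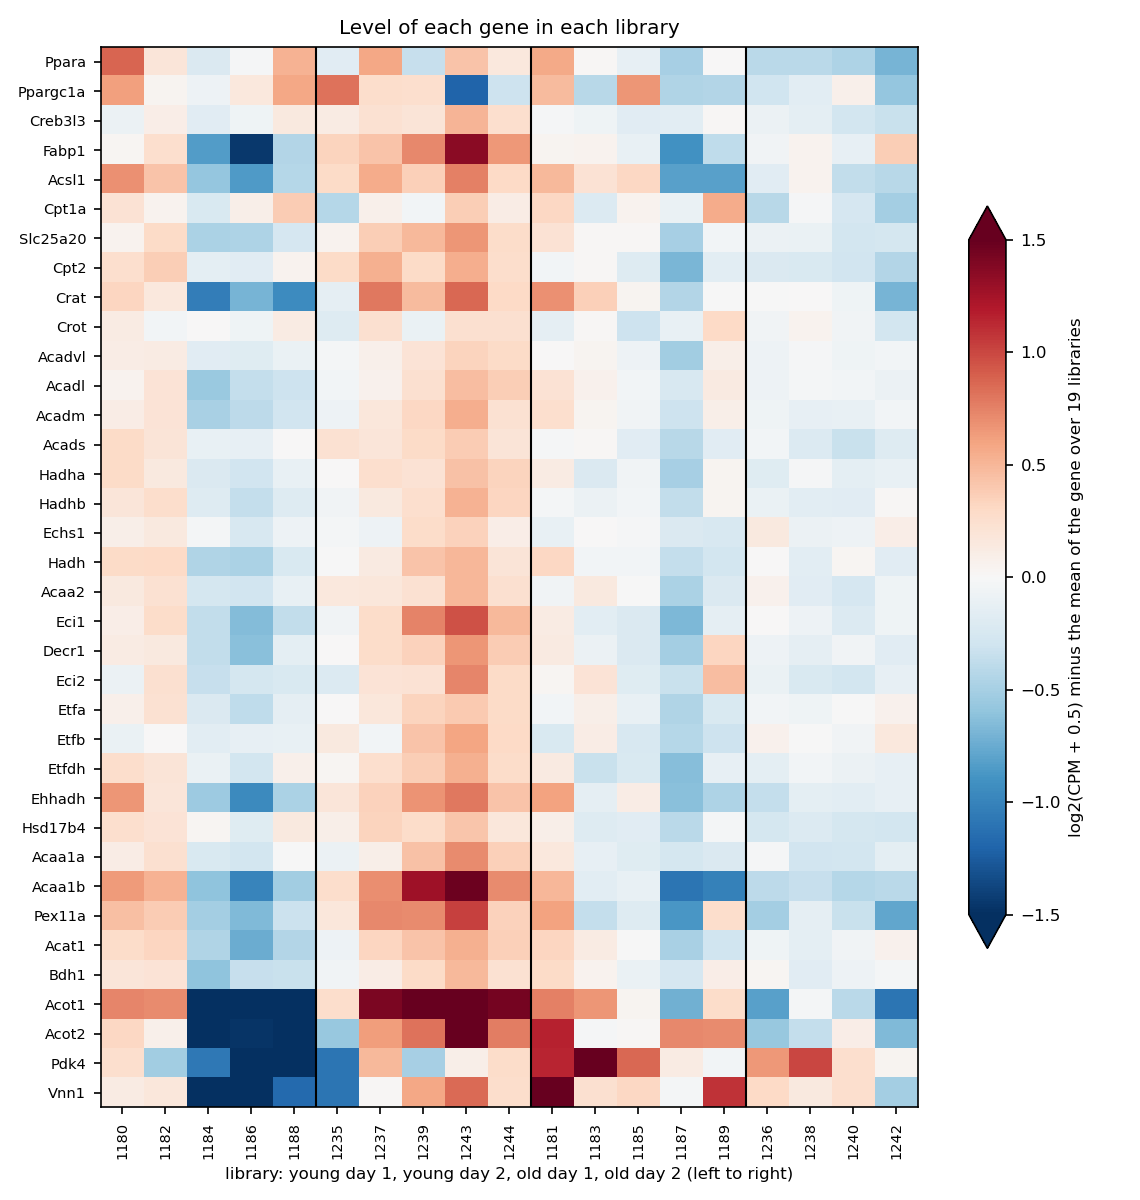
Level of each of the 36 genes (rows) in each of the 19 libraries (columns), as log2(CPM + 0.5) minus the mean of the gene over all libraries. Vertical lines part young and old mice and the cull days; young 1184, 1186 and 1188 are pale to dark blue in most rows and young 1243 is red in most.

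Among mice of one age the 36 genes tended to be high or low together. Young 1184, 1186 and 1188 were the 3 lowest young mice for 26 of the 36 genes, as they were for 11.1% of all genes tested. Young 1243 was the highest young mouse for 32 of the 36 (17.5% of all genes). Among old mice, 1187 was the lowest for 23 of the 36 (15% of all genes) and 1181 the highest for 20 (11.2%). Summed over the 36 genes, the share of all scaled counts was 1.28% ± 0.369 (SD, n = 10 young mice) and 1.03% ± 0.132 (SD, n = 9 old mice). The 3 young mice had 0.746% to 0.967%, within or below the old range of 0.752% to 1.24%, while the other 7 young mice had 1.21% to 2.00%. The same 3 mice had the highest acute phase sums among the young.

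**Figure D4:**
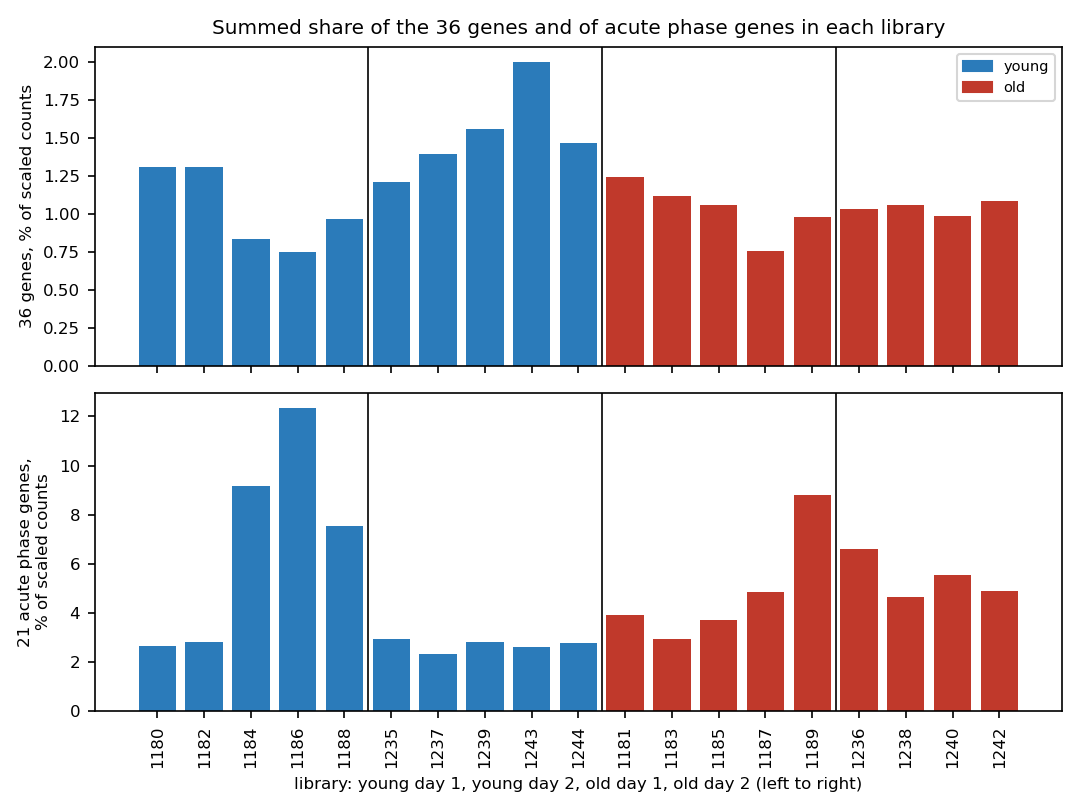
Share of scaled counts (%, bars from 0) of the 36 genes (upper panel) and of 21 acute phase genes (lower panel) in each library (x axis), blue for young and red for old mice, with lines between ages and cull days. The young mice with the 3 smallest shares of the 36 genes, 0.746% to 0.967%, are those with the 3 largest acute phase shares among the young.

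Results were therefore also taken without young 1184, 1186 and 1188. These mice were picked because an earlier account of these data set them apart, and since they are low for these genes, their omission raises the young mean by construction. Without them 23 of the 36 genes were lower in old mice and 0 higher, against 12.5% of all genes lower. In the same fit 17 of 21 acute phase genes and 12 of 13 macrophage markers were higher in old mice. Those 23 included 13 of the 21 mitochondrial and 5 of the 6 peroxisomal genes, and the medians were -0.34 and -0.53. Fabp1 became -0.56 (SE 0.170, edgeR adjusted p = 0.026), Acsl1 -0.64 (edgeR adjusted p = 0.0198), Hadha -0.35 (edgeR adjusted p = 0.0106) and Acaa1b -1.15 (edgeR adjusted p = 0.00317). The genes that did not pass in this fit were Ppargc1a, Cpt1a, Crat, Crot, Acadvl, Acadl, Echs1, Eci2, Etfb, Bdh1, Acot2, Pdk4 and Vnn1. With old 1187 left out as well, 24 were lower (12.6% of all genes) and Pdk4 was higher. With the acute phase score of each mouse as a covariate in all 19 libraries, 9 were lower (16.6% of all genes) and Pdk4 and Vnn1 were higher.

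With the score of macrophage, endothelial, stellate and lymphocyte markers as a covariate, 0 of the 36 genes were lower and 2, Pdk4 and Vnn1, were higher, against 13.4% of all genes called. The median of the 36 was 0.05 in that fit, 12 of the 36 had a negative value, and 4 were at an unadjusted p under 0.05, against 30% of all genes. Cpt2 was at -0.20 (edgeR adjusted p = 0.13), Hsd17b4 at -0.22 (edgeR adjusted p = 0.114) and Ppara at -0.15, while Pdk4 was at 1.80 (edgeR adjusted p = 0.00159) and Vnn1 at 1.41 (edgeR adjusted p = 0.0431). This score was 2.63 to 4.30 on the log2 scale in young and 2.81 to 6.21 in old mice. In the same fit 10 of 13 macrophage markers were called lower in old mice and 6 of 10 stellate cell markers higher, so the score did not level these markers between the ages. The 6 calls of lower genes depend on whether this score is in the fit.

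The age difference was also set side by side for the cull days. Among the 10 mice of the first day, 0 of the 36 genes passed in edgeR, against 3.67% of all genes, with 3 at an unadjusted p under 0.05, against 26.6% of all genes. The median was -0.01, with 18 negative and 18 positive values. Among the 9 mice of the second day, 25 of the 36 were lower in old mice, against 7.15% of all genes lower, and 35 had negative values with a median of -0.42. In the same fit 18 of 21 acute phase genes, 13 of 13 macrophage markers, 7 of 10 endothelial and 9 of 10 stellate cell markers were higher in old mice, and their part in the 25 was not tested beyond the fit of that day with the acute phase score, in which 0 of all 12362 genes tested passed. In that fit 33 of the 36 values were negative with a median of -0.25, and 2 of the 36 were at an unadjusted p under 0.05, against 10.2% of all genes. For each of the 36 genes the value of the second day was below that of the first. On the second day Cpt2 averaged 137 CPM in young (n = 5) and 85.6 CPM in old mice (n = 4), at -0.68, and Acaa1b averaged 1518 CPM in young and 598 CPM in old mice, at -1.34 (edgeR adjusted p = 0.0014). On the first day, which holds the 3 young mice that stood apart, Acaa1b averaged 762 CPM in young and 660 CPM in old mice (n = 5 each), at -0.20. Without those 3 mice the first day has 2 young mice, 33 of the 36 values were negative with a median of -0.31, and 0 genes of the whole table passed, with 5 of the 36 at an unadjusted p under 0.05, against 14.3% of all genes.

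The difference between the days was tested with an interaction term. In edgeR 0 of the 36 passed, as did 0% of all genes, and 14 were at an unadjusted p under 0.05, against 6.51% of all genes. That count of 14 was 24 without young 1180 (8.43% of all genes), 24 without old 1187 (9.16%) and 9 without young 1243 (5.26%). DESeq2 called 0 of the 36 and 0.0918% of all genes, whereas limma-voom with sample weights called 13 of the 36 and 2.84% of all genes. The largest interaction values were those of Acot1 (-2.77) and Acot2 (-2.63). Acot1 averaged 9.03 and 34.2 CPM in young mice of the first and second day and 14.4 and 7.91 CPM in old mice. Without the 3 young mice 3 of the 36 (Creb3l3, Acot1 and Acot2) were at an unadjusted p under 0.05, against 2.42% of all genes. The cull day itself was called for 2 of the 36, against 12.3% of all genes. Fabp1 was higher on the second day by 0.74 (SE 0.217, edgeR adjusted p = 0.0354) and Etfb by 0.33 (SE 0.0818, edgeR adjusted p = 0.0191), and without the 3 young mice neither passed. The call of Fabp1 also ended without any 1 of young 1184, 1186, 1188, 1239, 1243 or 1244 or old 1189 or 1242, while that of Etfb held for every single omission. Cull day also carries the 23 days of age between the mice of each group, so the day and those days of age cannot be told apart.

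**Figure D5:**
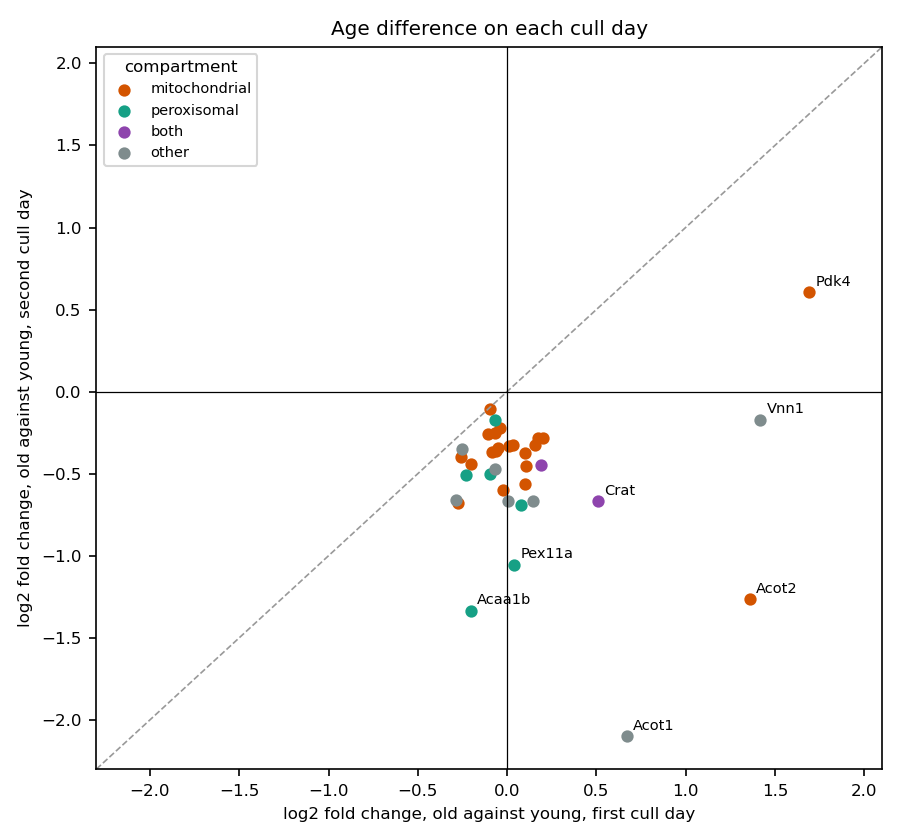
Log2 fold change of old against young on the first cull day (x axis) and on the second (y axis) for the 36 genes, coloured by compartment, with the line of equal values dashed. All 36 points lie below the dashed line, and Pdk4 is the one gene above 0 on the second day.

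A list of 81 other genes of these pathways was read from the same fit, 78 of which were tested. Of these 21 were lower in old mice, 4 higher and 53 not called, with a median of -0.12, beside 14.5% lower and 16.3% higher among all genes. The peroxisomal genes of the list held most of the lower ones, 12 of 23, with 1 higher and a median of -0.26. With the other-cell score in the fit 3 of these 23 were lower, against 6.53% of all genes, with a median of -0.12. Of the other groups, 3 of 14 mitochondrial genes, 2 of 15 peroxisome biogenesis genes and 4 of 19 regulators and PPAR alpha targets were lower, and 2 of 7 ketone body genes were higher. Nudt7, a peroxisomal hydrolase that degrades coenzyme A, had 388 to 621 CPM in young mice (median 462) and 123 to 360 CPM in old mice (median 293), at -0.92 (SE 0.171, edgeR adjusted p = 0.00097). For Nudt7 each of the 9 old mice was below the lowest young mouse, as for 89 of all 12269 genes tested. The same held for 1 other of the 78, Scp2, which codes for a peroxisomal thiolase and sterol carrier and was picked out here after its values were seen. It had 4148 to 5127 CPM in young and 2587 to 3997 CPM in old mice, at -0.37 (SE 0.0832, edgeR adjusted p = 0.0036).

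Among the regulators of the list, Lpin1, a phosphatidate phosphatase that also coactivates PPAR alpha, was lower at -1.21 (SE 0.314, edgeR adjusted p = 0.00815), with 34.7 to 200 CPM in young and 22.9 to 114 CPM in old mice. Its relative Lpin2 was lower at -0.53 (SE 0.141), and Klf15, a transcription factor of the fasting response, at -0.63 (SE 0.107), with 8 of 9 old mice below all young mice. Acsm3, a mitochondrial synthetase for medium chains, was lower at -0.58 (SE 0.161). The higher genes were Abcd2, a peroxisomal transporter of very long chains, Ppard, a receptor related to PPAR alpha, Slc16a1, a carrier of ketone bodies and lactate, and Oxct1, an enzyme of ketone body use that hepatocytes largely lack. Abcd2 had 2.52 to 32.0 CPM in young and 31.8 to 74.9 CPM in old mice, at 1.49 (SE 0.443, edgeR adjusted p = 0.0168). It was at 0.88 (edgeR adjusted p = 0.00974) without young 1184, 1186 and 1188. Ppard was at 0.54 and Slc16a1 at 0.31. The value of Oxct1, 1.28, rested on old 1187, which had 24.4 CPM against a median of 2.61 CPM in old mice. Without that mouse it was 0.44 (edgeR adjusted p = 0.0852), and the omission of any 1 of 9 other mice also ended the call. With the other-cell score in the fit, Acsm3 was at -0.12 (edgeR adjusted p = 0.613), Lpin2 at -0.40 (edgeR adjusted p = 0.139), Scp2 at -0.26 (edgeR adjusted p = 0.0931), Ppard at 0.42 (edgeR adjusted p = 0.131), Slc16a1 at 0.28 (edgeR adjusted p = 0.141) and Oxct1 at -0.30 (edgeR adjusted p = 0.583), none of them a call. Nudt7, Lpin1, Klf15 and Abcd2 passed in that fit too, Abcd2 at 2.32 (edgeR adjusted p = 0.00949).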

How the data were processed

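Poly(A) RNA of hepatocytes from 19 mice was sequenced as stranded paired-end libraries, per the labels' protocols. The authors deposited 1 table of estimated counts per gene. Per the file headers HOMER's analyzeRepeats.pl produced it on the mm10 build, counting exons, condensing transcripts to genes and leaving values raw. STAR, HOMER and GRCm38 are named in the submitters' processing notes. The strand setting, the handling of reads with several matches and software versions are not given in the sources used here. The deposited estimated counts are multiples of 0.5, with 29.2% of cells not whole, and were rounded before testing; the tests had been set out for plain counts and were kept. Of the total in each column name, 78.3% to 86.5% was in genes, and library totals were taken over genes. The table also gives each gene's exon length, used for values per kilobase. All 19 columns matched a mouse by number.

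Age was tested with edgeR 4.0.16 (R 4.3.3), quasi-likelihood, TMM scaling, filterByExpr by age group (minimum count 10), cull day as covariate and Benjamini-Hochberg adjustment over the 12269 genes tested, at a threshold of 0.05. The standard error is the absolute log2 fold change over the square root of F, and 95% intervals used the t distribution with the test's own degrees of freedom. CPM used TMM-scaled totals, and scores were mean log2 CPM with a prior count of 2. Mice are separate animals, per the labels. Alternatives were RLE scaling, totals alone, other filters, DESeq2 1.42.0, limma 3.58.1 (voom, weighting samples), omission of the day term, fits to either cull day, marker scores as covariates, summed close copies and omission of mice. Leaving out 4 mice together, the first day without 3 mice, unrounded counts and the second day with the acute phase score were added after seeing the data. Programs were tested on simulated data. Transcript windows came from GENCODE M21. The 36 genes, the lists and the tests were chosen with earlier results of these data known. All 36 genes could be named, and of the other pathway list the 5 called genes with the largest change in each direction at a mean of at least 1 CPM.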

Additional observations from a re-analysis of the deposited data

Results flagged for a closer look

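In each of 72 sets of values, 1 gene in 1 age group, the highest and lowest mouse were compared with the next one. In 6 of the 72 a mouse lay farther from the next than Dixon's 95% criterion allows, which chance alone does in about 1 in 20. Old 1181 was the highest old mouse in 3 of them, with 242.2 CPM of Ppara (next 165.1), 386.0 CPM of Ehhadh (next 273.4) and 1110 CPM of Acaa1b (next 725.4). Old 1187 was the lowest old mouse in 2 of them, with 267.4 CPM of Acadvl (next 363.3) and 65.7 CPM of Eci1 (next 90.8). Young 1243 had 202.6 CPM of Eci2 (next 148.7). Without old 1181, the mouse of 3 of these 6 values, 10 of the 36 genes were lower in old mice in place of 6. In that fit 13.8% of all genes were lower. Old 1181 was the highest old mouse for 20 of the 36, so its omission lowers the old mean of those genes by construction.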

How the results depend on the processing

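No paired analysis was possible because the library numbers are not shared between young and old mice. In the main fit 6 genes of the 36 were lower and 1 was higher in old mice. They numbered 8 and 1 with RLE scaling (15.7% of all genes lower) or no filter (11.6%), and 9 and 1 with DESeq2 (14.6%) or limma (15.7%). With unrounded counts (14.5%) or the 1 CPM filter (13.8%) they were 6 and 1. Without the cull day term they were 7 and 1 (11.5%), Ppara being lost and Acaa1a and Acaa1b gained. With totals alone they were 4 and 1 (9.53%), Ppara and Creb3l3 being lost, and 64.2% of all called genes were then higher in old mice, against 53.0%. The counts moved most with the choice of mice and covariates. For the 36, lower and higher numbered 0 and 0 in mice of the first day, 25 and 0 on the second, 23 and 0 without young 1184, 1186 and 1188, 24 and 1 without these and old 1187, 0 and 2 with the other-cell score, 9 and 2 with the acute phase score, 0 and 0 on the first day without the 3 young mice, and 0 and 0 on the second day with the acute phase score. In the last 2 of these edgeR fits 0 genes of the whole table passed, so their counts of 0 say nothing of the 36 (5 and 2 of the 36 at an unadjusted p under 0.05, against 14.3% and 10.2% of all genes, 33 negative in each, medians -0.31 and -0.25). Fewer mice were compared in the fits of 1 day. For the other changes the cause was not tested. Leaving out 1 mouse at a time gave 5 to 10 lower and 1 to 1 higher, 1 to 3 called by cull day and 0 to 0 by interaction. The 2 genes called by cull day were 1 with no filter, 0 without the 3 young mice and 0 without these and old 1187, but 3 with DESeq2 and 4 with the other-cell score, and the 0 called by interaction were 13 with limma.

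For the other pathway genes, 21 lower and 4 higher became 1 and 0 on the first day (1.79% of all genes lower). The lower ones were 33 without the 3 young mice (12.5%), 34 without these and old 1187 (12.6%) and 6 with the other-cell score (6.53%). With the acute phase score 8 were higher (19.2% of all genes higher). Lower and higher were 0 and 0 both on the first day without the 3 young mice and on the second day with the acute phase score, fits in which no gene passed. Leaving out 1 mouse gave 15 to 23 lower and 3 to 5 higher. In the fit of the second day Acot2 changed sign, to -1.27 (edgeR adjusted p = 0.0294), and Vnn1 too, to -0.17 without a call. Acot2 was also negative, without a call, when the 3 young mice were left out (-0.65) and at the lowest of its single omissions (-0.08). The least counted of the 36, Acot2 and Ppargc1a, had under 11 CPM in every mouse, so their errors hold more counting error.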
